A study of Homo sapiens with 9 samples.

Results

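The genes described here encode the translation initiation factors, the proteins that bring the small ribosomal subunit, the first tRNA and the messenger RNA together. A row of the count table was taken as a member when its gene ID mapped to a protein-coding gene with a symbol that begins with EIF1, EIF2, EIF3, EIF4, EIF5 or EIF6. EIF4A3, a helicase of the exon junction complex, and the 4 eIF2 kinases EIF2AK1 to EIF2AK4 carry such symbols without being initiation factors and were left out. The rule gave 51 genes of 60708 rows. In all, 143 rows had symbols of this form, of which 87 were not protein-coding and 5 were left out by name. The samples were 9 libraries of polyadenylated RNA from MDA-MB-231, an established human line of triple-negative breast cancer, in 3 groups of 3. The recovery group was collected 24 h into recovery from pladienolide B (PdB), for which the labels give no dose or duration of their own. The PdB group was given 10 nM PdB for 16 h, and the DMSO group received the solvent alone. PdB is a natural product that blocks splicing by binding the SF3B part of the U2 small nuclear ribonucleoprotein. The comparisons ask how far the RNA of each factor moved under the splicing block and how far it stood from the DMSO level at recovery.

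In the usual route of initiation, eIF2 carries the initiator tRNA to the small subunit together with eIF1, eIF1A, eIF3 and eIF5. The cap-binding complex eIF4F, made of the cap-binding protein eIF4E, the scaffold eIF4G and the helicase eIF4A, recruits this assembly to the mRNA, which is then scanned for a start codon. After start codon recognition, eIF5 stimulates GTP hydrolysis by eIF2, eIF5B joins the large subunit, and eIF2B exchanges the GDP on eIF2 for GTP. Cells regulate this route at eIF2, whose phosphorylation turns it into an inhibitor of eIF2B, and at eIF4E, which the 4E-binding proteins sequester unless the mTORC1 kinase phosphorylates them. In breast cancer, eIF4E and the mTORC1 branch are known for their part in growth.

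Libraries held between 56389689 and 67047079 counts. Of the 51 genes, 49 passed the filter on low counts, while EIF1AY and EIF4E1B had no counts in any library and were not tested. Mitochondrial genes held 8.02 to 8.18% of counts at recovery, 6.71 to 8.43% under PdB and 4.67 to 5.59% in DMSO. The 6 markers listed for this mesenchymal line summed to 3234 to 3278 CPM at recovery, 5356 to 5536 CPM under PdB and 6743 to 6888 CPM in DMSO. Among them SPARC had at most 2.06 CPM in any library. The 9 luminal and receptor markers summed to 1308 to 1496 CPM at recovery, 1002 to 1167 under PdB and 1173 to 1375 in DMSO. Of these, ESR1 was at 0 in all libraries, while KRT8 averaged 782 CPM at recovery, 638 under PdB and 660 in DMSO. The leukocyte and endothelial lists stayed under 1.71 CPM in every library. The part of these shifts in the values below was not tested. Levels are CPM, counts relative to the library total after scaling by trimmed-mean (TMM) factors, changes are log2 values ± SE, and a gene is said to have risen or fallen where edgeR's quasi-likelihood test gave an adjusted p under 0.05 over all 20812 genes tested. The median log2 change of all tested genes under PdB depended on the scaling. It was -0.11 with TMM factors, -0.014 with RLE factors, 0.039 if the upper quartile set the factors and -0.31 if only library totals did. Whether the replicates came from separate cultures is not in the labels. The p-values therefore measure the spread between these libraries, which may be technical. In bulk RNA, fewer cells that express a gene and less RNA per cell cannot be told apart.

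Under PdB the family split into genes that rose and genes that fell. Of the 49 tested, 21 rose and 23 fell against DMSO, where 32% of all tested genes rose and 38.2% fell. Among protein-coding genes, which all members are, 32.5% rose and 46.6% fell, beside 42.9% and 46.9% of the members. The members' median change was -0.17, beside -0.11 for all tested genes and -0.23 for all protein-coding genes tested. At recovery against DMSO, 26 members were higher and 9 lower, where 30.7% of all tested genes were higher and 30.5% lower (32.7% and 38.9% of protein-coding genes), and the members' median was 0.18 beside 0.026 for all genes. At recovery against PdB, 23 were higher and 16 lower, where 34.6% and 31.5% of all genes were (40.4% and 36.1% of protein-coding genes), and the median was 0.11 beside 0.062. With library totals the counts for recovery against PdB became 32 higher and 7 lower, and with upper-quartile factors 18 higher and 19 lower. The 3 comparisons share libraries in pairs, so their counts are not independent.

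The sizes of the changes can be set beside those of other genes. The median absolute log2 change of the members was 0.49 for PdB against DMSO, 0.35 for recovery against DMSO and 0.54 for recovery against PdB, beside 0.83, 0.58 and 0.73 for all protein-coding genes tested. Under PdB, 3 members rose past 2-fold, namely EIF1AD, EIF4A2 and EIF4E, and 7 fell past 2-fold, namely EIF2B1, EIF2B3, EIF2B5, EIF3J, EIF4E3, EIF4EBP3 and EIF5A2. At recovery against DMSO, 3 members lay past 2-fold, with EIF2A and EIF4A2 higher and EIF4E3 lower. At recovery against PdB, 10 members were higher past 2-fold, led by EIF5A2 at 2.01 ± 0.084 and EIF3J at 1.81 ± 0.069 (adjusted p = 2.7e-13 and 8.7e-14), and EIF4E alone was lower past 2-fold. These counts are out of 49 members tested. Of all 20812 genes tested, 3629 rose and 4627 fell past 2-fold under PdB. The numbers higher and lower past 2-fold were 2824 and 2455 at recovery against DMSO, and 4092 and 2752 at recovery against PdB. The whole family held 1.46, 1.46 and 1.42% of all counts in the recovery libraries, 1.21, 1.22 and 1.20% in the PdB libraries and 1.16, 1.20 and 1.18% in the DMSO libraries. In these shares of raw library totals, the recovery libraries were all above the other 6, while the PdB and DMSO ranges overlapped. The TMM factors, not applied here, were 1.077 to 1.089 at recovery, 0.883 to 0.923 under PdB and 1.022 to 1.033 in DMSO. Dividing by them would lift all PdB shares above DMSO and make the PdB and recovery ranges overlap, so this order depends on the scaling.

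**Figure D1:**
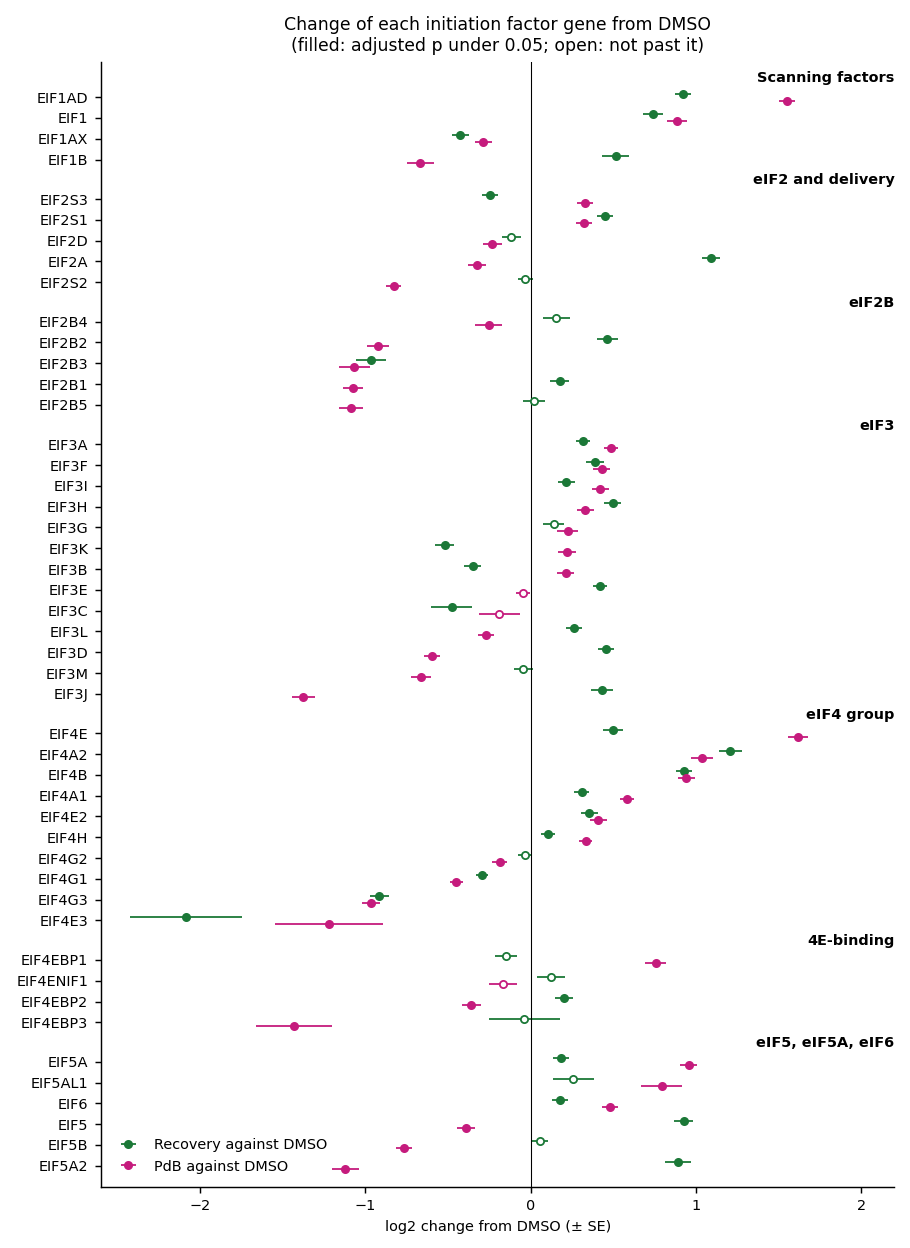
Log2 change against DMSO (x axis, ± SE) of the 47 members with a mean of at least 100 counts, by role (y axis), at recovery (green, upper point of each pair) and under PdB (magenta, lower point). Filled points passed the test. EIF1AD is placed with the scanning factors by its name. The eIF2B points sit left of 0 under PdB, and the widest rise is that of EIF4E, at 1.62.

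The promoter windows of the members can be set beside these changes. Many mRNAs of the translation machinery begin with a 5′ terminal oligopyrimidine (TOP) tract, a C at the cap followed by a run of C and T, which places their translation under mTORC1. Of 51 members, 43 had an entry in the RefSeq promoter table (GRCh38.p14), and 10 of these (23.3%) had a C followed by at least 4 bases that are each C or T at an annotated start, read on the gene's own strand. The share was 5.14% of all 27305 genes in that table and 6.92% of the 12392 that were tested. The windows below, of 50 bases with the pyrimidine run at the start in capitals, are those of 4 members that rose and 3 that fell under PdB. They are at chr12:53006426-53006475 (+) for EIF4B, chr3:186783547-186783596 (+) for EIF4A2, chr11:7987307-7987356 (+) for EIF3F, chrX:24054926-24054975 (+) for EIF2S3, chr22:36529147-36529196 (-) for EIF3D, chr11:32583801-32583850 (+) for EIF3M and chr3:150546757-150546806 (+) for EIF2A.
EIF4B: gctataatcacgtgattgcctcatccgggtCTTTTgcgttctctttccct
EIF4A2: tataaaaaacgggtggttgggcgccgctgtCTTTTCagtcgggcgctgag
EIF3F: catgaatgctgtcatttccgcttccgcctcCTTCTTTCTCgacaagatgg
EIF2S3: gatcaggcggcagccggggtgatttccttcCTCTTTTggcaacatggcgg
EIF3D: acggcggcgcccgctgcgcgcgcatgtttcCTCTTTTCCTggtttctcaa
EIF3M: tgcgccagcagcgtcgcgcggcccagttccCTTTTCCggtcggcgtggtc
EIF2A: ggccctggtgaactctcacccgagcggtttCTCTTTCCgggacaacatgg
Under PdB, 5 of the 10 members with the run rose and 4 fell, with a median change of 0.27. Of the 31 tested members whose windows lack it, 12 rose and 17 fell, with a median of -0.25. Over all tested genes the medians were -0.18 for the 858 with the run and -0.24 for the 11534 without it. At recovery against DMSO, 5 of the 10 were higher and 2 lower, with a median of 0.17, beside 17 higher and 7 lower of the 31 without the run, with a median of 0.18. Of the 858 tested genes with the run, 266 were higher and 318 lower there. The match describes letters at annotated starts only, and starts used in these cells were not measured.

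Per kilobase of annotated exon, the most abundant factors in DMSO were EIF5A at 229.5 ± 10.0, EIF6 at 209 ± 14.2, EIF4A1 at 192 ± 8.0, EIF4H at 177 ± 6.22 and EIF4G1 at 169.8 ± 2.06 CPM per kb (SD, n = 3). EIF5A, the hypusine-bearing factor that helps ribosomes past difficult peptide bonds, stood at 260.5 ± 10.9 at recovery and 445 ± 21.6 under PdB. At the low end, EIF5A2, its paralogue, had 7.01 ± 0.445 at recovery, 1.74 ± 0.102 under PdB and 3.78 ± 0.162 CPM per kb in DMSO. The cap-binding gene EIF4E had only 5.81 CPM per kb in DMSO against 54.6 for EIF4EBP1 and 23.6 for EIF4EBP2. These lengths take every annotated exon base, which lowers the value of genes with long alternative ends. The value of EIF3C, 1.35 CPM per kb in DMSO, is uncertain because 96.8% of its 50-base windows also occur in EIF3CL.

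**Figure D2:**
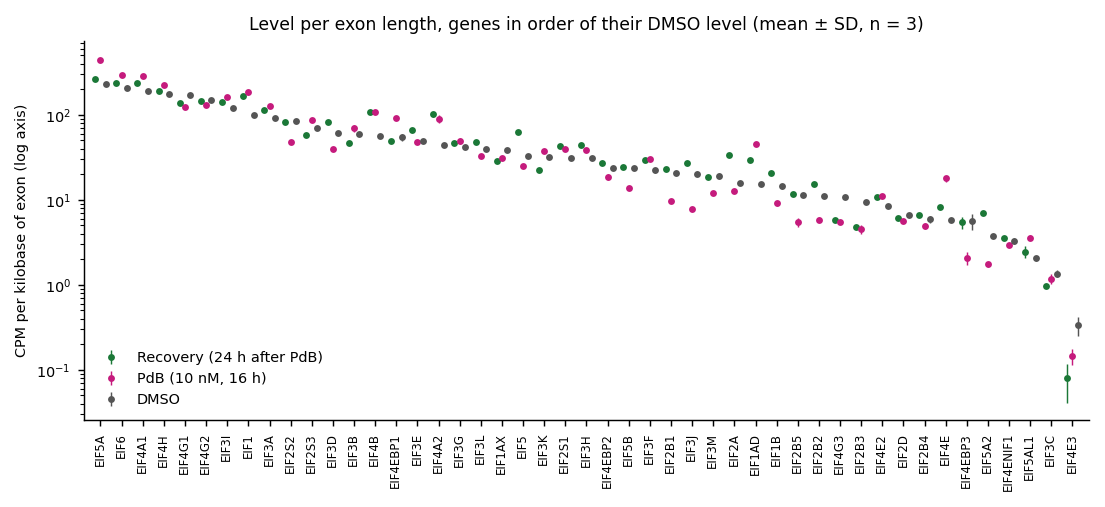
Mean CPM per kilobase of exon (log y axis, ± SD, n = 3) of the 47 members with a mean of at least 100 counts, ordered along the x axis by their DMSO level, at recovery (green), under PdB (magenta) and in DMSO (grey). Levels span from 229.5 for EIF5A to 0.337 for EIF4E3 in DMSO, and the 3 groups of a gene lie close together on this scale.

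In the cap-binding group, EIF4E, which binds the mRNA cap, rose most under PdB. Its levels were 121, 114 and 111 CPM at recovery, 259.6, 266 and 227 CPM under PdB and 79.7, 83.1 and 82.1 CPM in DMSO. All PdB libraries lay above all recovery libraries, which in turn lay above all DMSO libraries. The change was 1.62 ± 0.059 for PdB against DMSO (a 3.07-fold rise, adjusted p = 3.2e-14), 0.50 ± 0.059 for recovery against DMSO (adjusted p = 6.2e-07) and -1.12 ± 0.059 for recovery against PdB (adjusted p = 6.2e-12). EIF4E2, a cap-binding homologue that acts in repression, changed by 0.41 ± 0.052 under PdB (adjusted p = 1.2e-06) and stood at 78.5, 80.1 and 80.7 CPM there against 59.7, 58.7 and 61.8 CPM in DMSO. EIF4E3, another homologue, had 1.17, 0.383 and 1.01 CPM at recovery, 1.19, 1.69 and 1.81 CPM under PdB and 4.39, 3.88 and 2.63 CPM in DMSO. It was lower in both treated groups, at -2.09 ± 0.34 for recovery and -1.22 ± 0.33 for PdB (adjusted p = 3.1e-05 and 0.0028), but it shares 738 exon bases with a gene on the same strand.

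The helicases and EIF4B rose in both treated groups, while the scaffolds EIF4G1 and EIF4G3 fell. EIF4A2, the less abundant of the eIF4A helicases, had 645, 647 and 572 CPM at recovery, 582, 587 and 485 CPM under PdB and 270.2, 283 and 254 CPM in DMSO. Both treated groups were above DMSO, at 1.21 ± 0.068 for recovery (adjusted p = 3.2e-11) and 1.04 ± 0.068 for PdB (adjusted p = 1.2e-10). EIF4B, which stimulates the helicase, showed levels of the same kind, with 681, 667 and 616 CPM at recovery, 669, 681 and 631 CPM under PdB and 348, 356 and 328 CPM in DMSO. Its change was 0.93 ± 0.050 at recovery and 0.94 ± 0.050 under PdB (adjusted p = 1.6e-11 and 5.2e-12), and recovery against PdB gave -0.013 ± 0.049 (adjusted p = 0.83), a difference whose sign turned under library totals (0.26, adjusted p = 6e-05), without a filter (0.0074) and with libraries left out in turn (-0.043 to 0.038).

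EIF4A1, the main helicase, had 1280.4, 1265 and 1247 CPM at recovery, 1588, 1540.0 and 1467 CPM under PdB and 984, 1068 and 1013 CPM in DMSO. The groups did not overlap, with a change of 0.58 ± 0.043 under PdB and 0.31 ± 0.043 at recovery against DMSO (adjusted p = 6.3e-10 and 5.4e-06). EIF4H, a relative of EIF4B, rose by 0.33 ± 0.041 under PdB (adjusted p = 7.2e-07). Its recovery value against DMSO was 0.11 (adjusted p = 0.032), a call lost without a filter and when any of 5 libraries was left out, namely DMSO replicates 1 and 2 and each recovery replicate, with adjusted p between 0.055 and 0.14. EIF4G1, the scaffold that joins eIF4E to eIF4A, fell in both treated groups, with 1153, 1114 and 1162 CPM at recovery, 1029, 1037 and 1014 CPM under PdB and 1413, 1409.8 and 1382 CPM in DMSO. Its change was -0.45 ± 0.038 under PdB and -0.29 ± 0.038 at recovery against DMSO (adjusted p = 4.3e-09 and 1.8e-06).

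EIF4G3, a second scaffold with the same binding partners, was lower in both treated groups, with 52.3, 55.0 and 57.3 CPM at recovery, 53.0, 52.0 and 53.8 CPM under PdB and 106, 103 and 101 CPM in DMSO. All 6 treated libraries lay below the DMSO libraries, and the recovery and PdB ranges overlapped. The change was -0.91 ± 0.055 at recovery and -0.97 ± 0.055 under PdB against DMSO (adjusted p = 6.5e-11 and 1.4e-11), while recovery against PdB gave 0.051 ± 0.055 (adjusted p = 0.43), 0.32 with library totals (adjusted p = 8.1e-05) and -0.022 with upper-quartile factors. EIF4G2, a scaffold that lacks the eIF4E-binding region, moved least, by -0.19 ± 0.043 under PdB (adjusted p = 0.00078), a call that was lost with RLE and upper-quartile factors. Over the 10 tested genes of the group, 6 rose and 4 fell under PdB (60% and 40%, beside 32.5% and 46.6% of protein-coding genes). At recovery against DMSO, 6 were higher and 3 lower (60% and 30%, beside 32.7% and 38.9%).

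**Figure D3:**
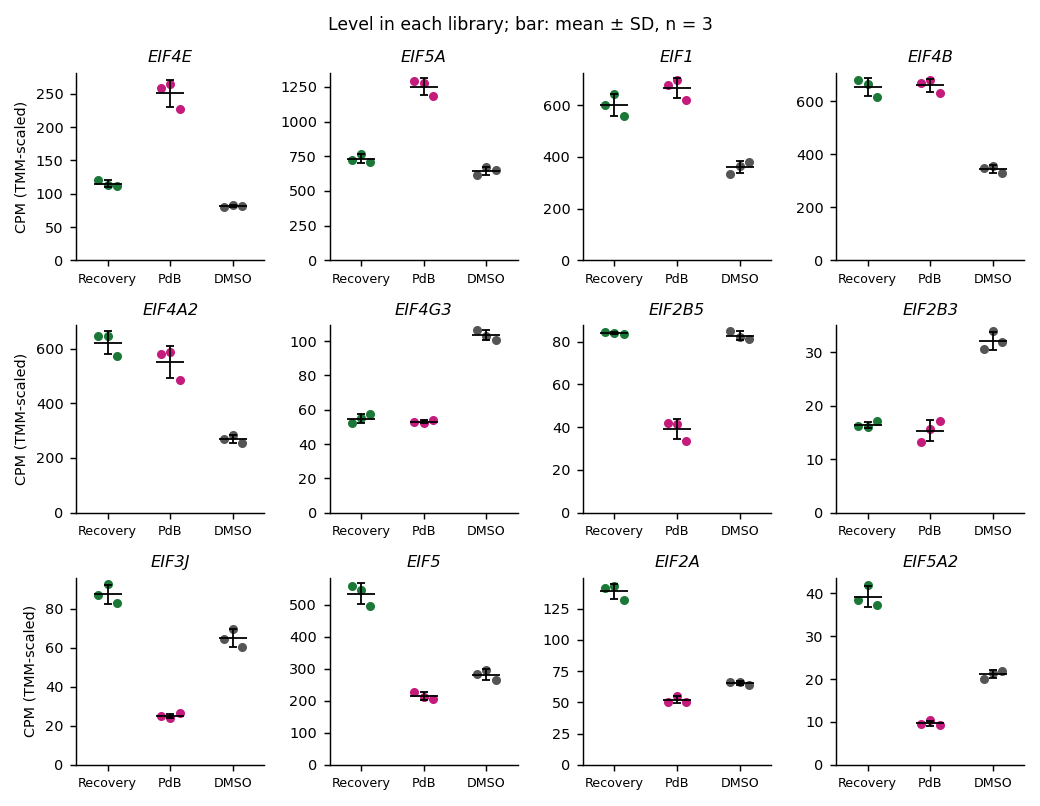
CPM (y axis, from 0) of 12 members in each library (points) with mean ± SD (bars, n = 3), at recovery (green), under PdB (magenta) and in DMSO (grey), left to right. EIF4E and EIF5A are highest under PdB, EIF4B, EIF4A2 and EIF1 are high in both treated groups, EIF4G3 and EIF2B3 are low in both, and EIF2B5, EIF3J, EIF5, EIF2A and EIF5A2 are lowest under PdB.

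The 4E-binding proteins, which compete with eIF4G for eIF4E, moved in opposite directions under PdB. EIF4EBP1 had 55.0, 51.4 and 52.0 CPM at recovery, 97.5, 96.7 and 103 CPM under PdB and 53.9, 57.6 and 64.1 CPM in DMSO. The PdB libraries stood above the other 6, with a change of 0.76 ± 0.064 against DMSO (adjusted p = 4.4e-09), and the recovery and DMSO ranges overlapped (-0.15 ± 0.064, adjusted p = 0.053). That difference passed the test without a filter (adjusted p = 0.034), with only the 6 libraries compared (0.048), without PdB replicate 3 (0.038) and without DMSO replicate 1 (-0.21, adjusted p = 0.014). EIF4EBP2 had 205, 196 and 192 CPM at recovery, 127, 127 and 146 CPM under PdB and 172, 167 and 176 CPM in DMSO, which was lowest under PdB and highest at recovery. It changed by -0.36 ± 0.056 for PdB and 0.20 ± 0.056 for recovery against DMSO (adjusted p = 1.5e-05 and 0.0043). EIF4EBP3, the least abundant, had 4.47, 3.43 and 3.41 CPM at recovery, 1.45, 1.17 and 1.69 CPM under PdB and 2.96, 4.68 and 4.0 CPM in DMSO. It fell by 1.43 under PdB (adjusted p = 1.9e-05), but shares 507 exon bases with the read-through gene ANKHD1-EIF4EBP3. EIF4ENIF1, which carries eIF4E to processing bodies, stood at 17.0, 17.4 and 18.5 CPM under PdB and 21.4, 19.8 and 18.3 CPM in DMSO and did not pass the test.

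Set against its inhibitors on the per-length scale, EIF4E was 0.107 ± 0.00134 of the sum of EIF4EBP1 and EIF4EBP2 at recovery, 0.162 ± 0.0194 under PdB and 0.0744 ± 0.00429 in DMSO (SD, n = 3). Its ratio to EIF4G1 was 0.0593 ± 0.00269 at recovery, 0.143 ± 0.0103 under PdB and 0.0342 ± 0.000951 in DMSO. In both ratios every PdB library was above every recovery library, and every recovery library above every DMSO library. RNA ratios of this kind say nothing of protein or phosphorylation, which were not measured.

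The 4 tested genes whose symbols begin with EIF1 include EIF1AD, which is grouped here by its name. Under PdB 2 of them rose and 2 fell (50% and 50%, beside 32.5% and 46.6% of protein-coding genes). At recovery against DMSO 3 were higher and 1 lower (75% and 25%, beside 32.7% and 38.9%). EIF1, which guards the choice of start codon, rose. It had 599, 644 and 556 CPM at recovery, 679, 695 and 620.2 CPM under PdB and 335, 366 and 378 CPM in DMSO. Both treated groups were above DMSO and overlapped each other. The change was 0.74 ± 0.060 at recovery and 0.89 ± 0.060 under PdB against DMSO (adjusted p = 4.1e-09 and 1.8e-10). Its close relative EIF1B went the other way under PdB, with 41.6, 40.3 and 36.8 CPM at recovery, 16.3, 18.7 and 17.3 CPM under PdB and 25.7, 29.4 and 28.0 CPM in DMSO. It was lowest under PdB and highest at recovery, at -0.67 ± 0.082 for PdB and 0.51 ± 0.080 for recovery against DMSO (adjusted p = 7.3e-07 and 1.8e-05).

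EIF1AX, which sits in the A site during scanning, fell in both treated groups, with 124, 131 and 122 CPM at recovery, 141, 143 and 131 CPM under PdB and 162, 169 and 174 CPM in DMSO. Its change was -0.42 ± 0.052 at recovery and -0.29 ± 0.052 under PdB (adjusted p = 9.5e-07 and 7.2e-05). EIF1AD, named for a domain it shares with eIF1A, had 95.6, 100.2 and 98.1 CPM at recovery, 152, 151 and 152 CPM under PdB and 51.9, 50.3 and 52.8 CPM in DMSO. The groups were far apart, with 1.55 ± 0.049 under PdB and 0.92 ± 0.049 at recovery against DMSO (adjusted p = 4.6e-15 and 1.3e-11). EIF1AD shares 98 exon bases with BANF1 on the opposite strand, which averaged 202 ± 0.878 CPM at recovery, 394 ± 11.8 under PdB and 208 ± 6.90 in DMSO. The use of strand in counting is not given in the sources used here, and the part of BANF1 reads in the EIF1AD value was not tested.

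The 3 subunits of eIF2 did not move in 1 direction under PdB, where 2 rose and 1 fell. EIF2S1, the alpha subunit that the stress kinases phosphorylate, had 244, 247 and 235 CPM at recovery, 217, 227 and 220.5 CPM under PdB and 173, 184 and 174 CPM in DMSO. It was above DMSO in all treated libraries, by 0.45 ± 0.046 at recovery and 0.32 ± 0.046 under PdB (adjusted p = 9.6e-08 and 4.9e-06). EIF2S2, the beta subunit, fell under PdB, with 225, 217 and 218 CPM at recovery, 131, 126 and 124 CPM under PdB and 218, 232 and 226 CPM in DMSO. Its PdB libraries were far below the other 6, at -0.83 ± 0.047 against DMSO (adjusted p = 1.3e-11), and the recovery and DMSO ranges overlapped.

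EIF2S3, the GTP-binding gamma subunit, was highest under PdB and lowest at recovery, with 199, 216 and 194 CPM at recovery, 298, 306 and 302 CPM under PdB and 244, 246 and 233 CPM in DMSO. It changed by 0.33 ± 0.048 for PdB and -0.25 ± 0.048 for recovery against DMSO (adjusted p = 7.4e-06 and 0.00022). EIF2A, a factor outside the eIF2 complex that can deliver initiator tRNA, had 141, 144 and 132 CPM at recovery, 50.4, 55.2 and 50.6 CPM under PdB and 65.9, 66.3 and 63.6 CPM in DMSO. Its recovery libraries were above all others, at 1.09 ± 0.056 against DMSO, while PdB gave -0.33 ± 0.056 (adjusted p = 8.5e-12 and 4.7e-05). EIF2D, which can also bind initiator tRNA, fell by 0.23 under PdB (adjusted p = 0.0016), a call lost with upper-quartile factors. EIF2S3B, a retrocopy of EIF2S3, had at most 0.782 CPM in any library.

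All 5 subunits of eIF2B, the exchange factor that recharges eIF2, fell under PdB, with a median change of -1.07. Among protein-coding genes, 46.6% fell and the median change was -0.23. The catalytic subunit EIF2B5 had 84.5, 83.9 and 83.4 CPM at recovery, 41.7, 41.6 and 33.6 CPM under PdB and 85.0, 82.2 and 81.2 CPM in DMSO. The PdB libraries were all below the other 6, at -1.09 ± 0.071 against DMSO (adjusted p = 1e-10), and recovery against DMSO gave 0.019 ± 0.069 (adjusted p = 0.83). The regulatory subunits EIF2B1 and EIF2B2 fell by 1.08 and 0.92 (adjusted p = 1.2e-11 and 3.6e-10). EIF2B2 had 86.6, 85.1 and 78.3 CPM at recovery, 34.3, 30.7 and 30.5 CPM under PdB and 57.5, 62.4 and 61.5 CPM in DMSO, so that recovery was above DMSO, by 0.46 ± 0.064 (adjusted p = 4.4e-06).

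EIF2B3, the partner of the catalytic subunit, stayed below DMSO at recovery, with 16.3, 16.0 and 17.1 CPM at recovery, 13.2, 15.6 and 17.2 CPM under PdB and 30.6, 34.0 and 31.9 CPM in DMSO. Both treated groups were below DMSO and overlapped each other, at -0.97 ± 0.093 for recovery and -1.07 ± 0.093 for PdB (adjusted p = 4.1e-08 and 7.4e-09), and recovery against PdB gave 0.10 ± 0.094 (adjusted p = 0.36), but 0.37 with library totals (adjusted p = 0.0039). EIF2B4 fell least, with 28.6, 25.5 and 25.1 CPM under PdB and 28.2, 32.0 and 34.2 CPM in DMSO, ranges that overlap. Its change of -0.25 ± 0.082 (adjusted p = 0.011) lost its call with RLE and upper-quartile factors and in DESeq2, where the adjusted p was 0.12. On the per-length scale the median of the eIF2B subunits was 0.200 ± 0.0107 of the median of the 3 eIF2 subunits at recovery, 0.115 ± 0.0058 under PdB and 0.160 ± 0.00903 in DMSO, with the PdB libraries below the other 6.

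The subunits of eIF3, the large complex that binds the small ribosomal subunit and eIF4G, moved in both directions. Of 14 genes, 7 rose and 4 fell under PdB (50% and 28.6%, beside 32.5% and 46.6% of protein-coding genes). The SD of the log2 changes across the 12 subunits with reads of their own was 0.57. EIF3J, a loosely bound subunit that also acts in ribosome recycling, fell most, with 86.8, 92.4 and 83.0 CPM at recovery, 24.9, 23.8 and 26.3 CPM under PdB and 64.2, 69.8 and 60.5 CPM in DMSO. Its PdB libraries lay far below all others, at -1.37 ± 0.069 against DMSO (adjusted p = 2.3e-12), and its recovery libraries above DMSO, at 0.43 ± 0.066 (adjusted p = 1.4e-05). EIF3A, the scaffold of the complex, rose most, with 809, 801 and 815 CPM at recovery, 919, 892 and 916 CPM under PdB and 652, 671 and 622 CPM in DMSO. It changed by 0.49 ± 0.041 under PdB and 0.32 ± 0.041 at recovery (adjusted p = 4.2e-09 and 1.9e-06). Per length, EIF3J was 0.240 ± 0.0153 of EIF3A at recovery, 0.0611 ± 0.00236 under PdB and 0.222 ± 0.00802 in DMSO.

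EIF3D, which can itself bind the cap of some mRNAs, fell under PdB and was above DMSO at recovery, with 342, 334 and 334 CPM at recovery, 165, 169 and 153 CPM under PdB and 237, 257 and 243 CPM in DMSO. The changes were -0.60 ± 0.049 for PdB and 0.45 ± 0.049 for recovery against DMSO (adjusted p = 3e-09 and 1.9e-07). EIF3M and EIF3L also fell under PdB, by 0.66 and 0.27. EIF3K, which binds EIF3L, moved the other way, with 62.6, 64.7 and 58.9 CPM at recovery, 101, 107 and 102 CPM under PdB and 85.3, 91.8 and 90.3 CPM in DMSO. It was highest under PdB and lowest at recovery, at 0.22 ± 0.055 for PdB and -0.52 ± 0.055 for recovery against DMSO (adjusted p = 0.0018 and 1.6e-07).

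EIF3H had the largest rise past the test among eIF3 genes at recovery against DMSO. Its levels were 289.8, 281 and 274 CPM at recovery, 252, 263 and 237 CPM under PdB and 188, 205 and 206 CPM in DMSO. All DMSO libraries lay below the treated ones, at 0.50 ± 0.052 for recovery and 0.33 ± 0.052 for PdB (adjusted p = 1.2e-07 and 1.6e-05). EIF3E stood at 282, 285 and 288 CPM under PdB and 289.6, 296 and 297 CPM in DMSO, a change of -0.046 ± 0.041 (adjusted p = 0.32) whose sign turned with RLE (0.050). Upper-quartile factors called it higher (0.10, adjusted p = 0.027) and library totals called it lower (-0.24, adjusted p = 3.6e-05). EIF3B, EIF3G and EIF3K, which rose by 0.21, 0.22 and 0.22 under PdB, lost their calls with library totals. EIF3F and EIF3I rose by 0.43 and 0.42. EIF3C and EIF3CL, whose reads cannot be kept apart, did not pass the test under PdB, at 8.78, 8.93 and 7.07 CPM for EIF3C there and 8.85, 10.4 and 9.01 CPM in DMSO.

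**Figure D4:**
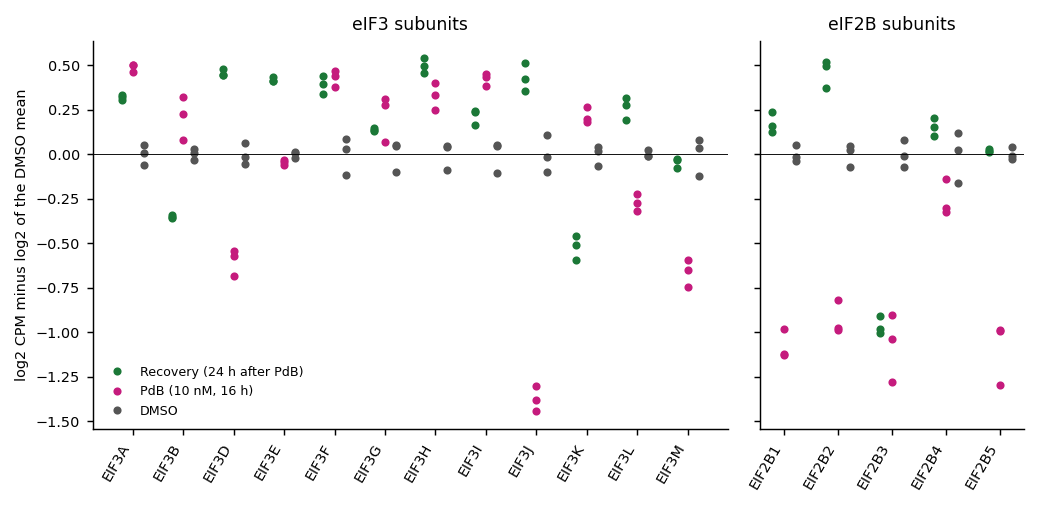
Log2 CPM of each library minus the log2 of the gene's DMSO mean (y axis) for 12 eIF3 subunits (left; EIF3C and EIF3CL are not shown) and the 5 eIF2B subunits (right), at recovery (green), under PdB (magenta) and in DMSO (grey). Under PdB the eIF2B points all lie below 0, whereas the eIF3 points fall on both sides, with EIF3J the lowest. At recovery EIF2B3 is the eIF2B subunit far below 0.

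Of the 6 genes of start codon recognition, subunit joining and the eIF5A branch, 3 rose and 3 fell under PdB. These shares, 50% each, stand beside 32.5% and 46.6% of protein-coding genes. At recovery against DMSO 4 were higher (66.7%, beside 32.7%). EIF5, the protein that triggers GTP hydrolysis on eIF2, had 558, 548 and 498 CPM at recovery, 228, 212 and 204 CPM under PdB and 283, 297 and 264 CPM in DMSO. The PdB libraries lay below DMSO and the recovery libraries above it, at -0.39 ± 0.057 for PdB and 0.93 ± 0.057 for recovery (adjusted p = 6.7e-06 and 1e-10). EIF5B, the GTPase that joins the subunits, had 192, 189 and 197 CPM at recovery, 104, 112 and 110.3 CPM under PdB and 175, 191 and 189 CPM in DMSO. It fell under PdB, by 0.77 (adjusted p = 1.3e-10), and recovery against DMSO gave 0.057 ± 0.050 (adjusted p = 0.34), with overlapping ranges. The recovery difference passed with upper-quartile factors (0.13, adjusted p = 0.024) and library totals (0.13, adjusted p = 0.037). EIF6, which keeps the large subunit from joining too early, had 386, 383 and 386 CPM at recovery, 478, 475 and 470.2 CPM under PdB and 314, 357 and 350.2 CPM in DMSO. Every treated library was above DMSO, at 0.18 ± 0.048 for recovery and 0.48 ± 0.048 for PdB (adjusted p = 0.0037 and 5.2e-08).

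EIF5A, an abundant factor in every group, had 719.6, 768 and 712 CPM at recovery, 1295, 1279.5 and 1183 CPM under PdB and 615, 669 and 654 CPM in DMSO. It was highest under PdB, at 0.95 ± 0.049 against DMSO, and 0.18 ± 0.048 at recovery (adjusted p = 3.1e-12 and 0.0031). EIF5A2 did the reverse under PdB, with 38.4, 42.0 and 37.2 CPM at recovery, 9.52, 10.4 and 9.26 CPM under PdB and 20.1, 21.4 and 21.8 CPM in DMSO. Its PdB libraries were below DMSO and its recovery libraries above, at -1.12 ± 0.084 for PdB and 0.89 ± 0.079 for recovery (adjusted p = 7.5e-10 and 1.5e-08). EIF5AL1 rose by 0.79 under PdB, but it is a retrocopy of EIF5A, and 30.1% of the 50-base windows of EIF5A also occur in it.

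Ratios of paired genes within a library need no scaling between libraries. Of 12 pairs, 10 differed among the 3 groups at an adjusted p under 0.05 in an exact permutation test of the F statistic over all 1680 assignments of the 9 libraries, whose smallest p is 0.00357. The ratio of EIF5A to EIF5A2 counts was 18.7 at recovery, 129 under PdB and 30.6 in DMSO (geometric means, exact adjusted p = 0.00536). The ratio of EIF1 to EIF1B was 15.1, 38.1 and 13.0 in the same order of groups, with the same exact p. In both pairs the abundant paralogue stood highest relative to the other under PdB, and the groups did not overlap.

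The ratio of EIF4E to EIF4E2 was 1.502 at recovery, 3.13 under PdB and 1.36 in DMSO, and that of EIF4EBP1 to EIF4EBP2 was 0.268, 0.741 and 0.341 (exact adjusted p = 0.00536 for each). EIF4A1 to EIF4A2 was 2.04, 2.79 and 3.80, lowest at recovery and highest in DMSO (exact adjusted p = 0.00536). EIF4G1 to EIF4G3 was 20.8, 19.4 and 13.5, higher in both treated groups than in DMSO (exact adjusted p = 0.00536). EIF2A to EIF2D was 2.86, 1.16 and 1.24, with recovery apart from the other groups (exact adjusted p = 0.00952). Between genes of like role, EIF5 to EIF5B was 2.77, 1.97 and 1.52, and EIF4B to EIF4H was 1.08, 0.930 and 0.610 (exact adjusted p = 0.00536 for each). EIF3C to EIF3CL and EIF2S3 to EIF2S3B, whose reads are shared between copies, did not pass (exact adjusted p = 0.125 and 0.525).

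**Figure D5:**
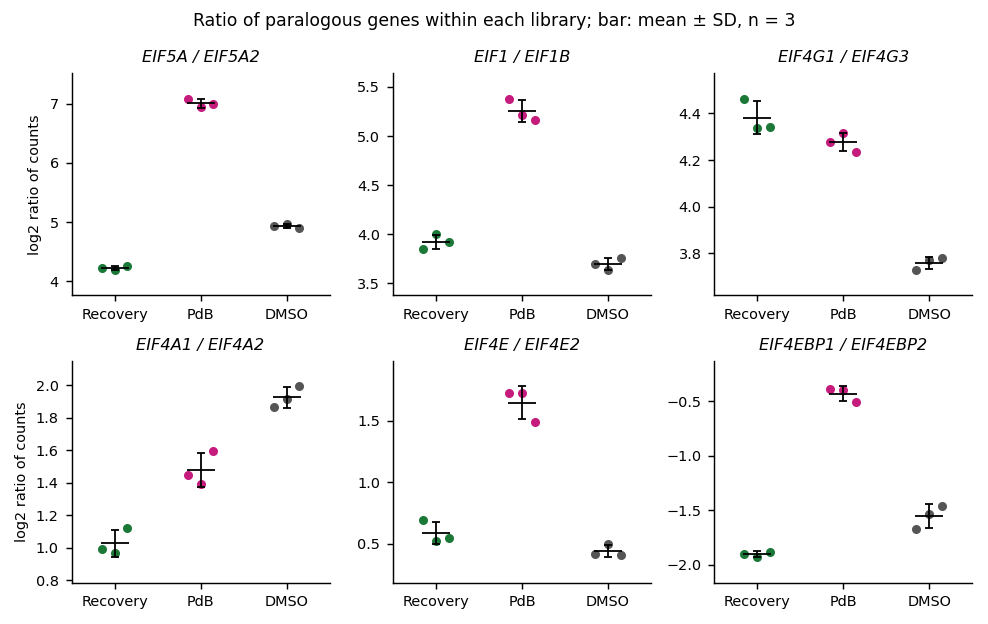
Log2 ratio of the counts of paired genes (y axis) in each library (points) with mean ± SD (bars, n = 3), at recovery (green), under PdB (magenta) and in DMSO (grey), left to right. EIF5A over EIF5A2, EIF1 over EIF1B, EIF4E over EIF4E2 and EIF4EBP1 over EIF4EBP2 peak under PdB, EIF4G1 over EIF4G3 is raised in both treated groups, and EIF4A1 over EIF4A2 is lowest at recovery.

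Regulators outside the family moved as well. Among 13 genes of the eIF2 kinases, their phosphatases and targets, 8 rose and 5 fell under PdB. These shares, 61.5% and 38.5%, stand beside 32.5% and 46.6% of protein-coding genes. At recovery against PdB 1 was higher and 10 lower (7.69% and 76.9%, beside 40.4% and 36.1% of protein-coding genes). PPP1R15A, the stress-induced subunit of the eIF2 phosphatase, had 547, 537 and 510.4 CPM at recovery, 835, 872 and 749 CPM under PdB and 174, 203 and 179.9 CPM in DMSO. The groups did not overlap, at 2.14 ± 0.064 for PdB and 1.52 ± 0.062 for recovery against DMSO (adjusted p = 1.9e-15 and 5.2e-13). ATF4, a transcription factor translated when eIF2 is phosphorylated, rose by 1.01 ± 0.059 under PdB and 0.73 ± 0.059 at recovery (adjusted p = 2.1e-11 and 3.4e-09), and the stress factor DDIT3 rose by 2.31 under PdB. The eIF2 kinases went both ways under PdB. The RNA-sensing kinase EIF2AK2 fell by 1.41 and EIF2AK1 by 0.42, while EIF2AK3 rose by 1.59 and EIF2AK4 by 0.14. The change of EIF2AK4 is small (edgeR adjusted p = 0.015), and whether it holds under other scaling was not tested. IMPACT, an inhibitor of GCN2 activation, was lower in both treated groups, at -1.85 ± 0.16 at recovery and -1.69 ± 0.16 under PdB (adjusted p = 1.1e-08 and 2.2e-08).

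Of 17 genes of mTORC1 and cap control, 6 rose and 8 fell under PdB, and 6 were higher and 10 lower at recovery against DMSO. The shares under PdB, 35.3% and 47.1%, were near the 32.5% and 46.6% of protein-coding genes. Those at recovery, 35.3% and 58.8%, stand beside 32.7% and 38.9%. MTOR, the kinase itself, had 47.3, 48.4 and 51.1 CPM at recovery, 28.0, 34.4 and 36.5 CPM under PdB and 101, 96.6 and 94.6 CPM in DMSO. All treated libraries were below DMSO, at -0.99 ± 0.077 for recovery and -1.56 ± 0.079 for PdB (adjusted p = 2.3e-09 and 2.7e-12). The kinases that phosphorylate eIF4E fell under PdB, MKNK1 by 2.12 and MKNK2 by 1.63 (adjusted p = 1.5e-12 and 2.5e-13). PDCD4, an inhibitor of eIF4A, had 74.2, 75.3 and 65.6 CPM at recovery, 21.1, 20.7 and 20.8 CPM under PdB and 31.5, 26.9 and 28.98 CPM in DMSO, lowest under PdB and highest at recovery. It changed by -0.48 ± 0.075 for PdB and 1.299 ± 0.074 for recovery against DMSO (adjusted p = 1.6e-05 and 3.3e-11). AKT1S1, an mTORC1 inhibitor, rose by 1.09 under PdB, CYFIP1, an eIF4E-binding repressor, fell by 2.09 at recovery against DMSO, and SESN2, which restrains mTORC1, was higher by 1.43 there.

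Among 18 other helpers of initiation, 7 rose and 10 fell under PdB (38.9% and 55.6%, beside 32.5% and 46.6% of protein-coding genes). ABCE1, which recycles ribosomes, fell most in this list, with 219.9, 229.9 and 209 CPM at recovery, 39.2, 40.1 and 36.5 CPM under PdB and 190.4, 203 and 184 CPM in DMSO. The PdB libraries were far below the other 6, at -2.32 ± 0.058 (adjusted p = 2.8e-16). NCBP2, of the nuclear cap-binding complex, rose by 1.93 and EIF4A3 by 1.06, while DENR, a partner in re-initiation, fell by 1.23 under PdB and by 1.81 at recovery. CTIF, a scaffold for translation on the nuclear cap complex, fell at recovery against DMSO by 2.15, at 6.85, 6.92 and 9.17 CPM in recovery libraries against 32.5, 35.0 and 34.8 CPM in DMSO. PABPC1, the poly(A)-binding protein, fell by 0.16 under PdB, a call lost with RLE and upper-quartile factors.

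A list of 16 genes held elongation factors, their modifying enzymes, and regulating, rescue and related proteins. Of these, 10 rose and 4 fell under PdB (62.5% and 25%, beside 32.5% and 46.6% of protein-coding genes). At recovery against PdB, 2 were higher and 11 lower (12.5% and 68.75%, beside 40.4% and 36.1% of protein-coding genes). DOHH, which completes the hypusine on eIF5A, had 129, 134 and 112 CPM at recovery, 147, 141 and 131 CPM under PdB and 30.6, 36.3 and 33.3 CPM in DMSO, with both treated groups well above DMSO. It changed by 1.90 ± 0.075 at recovery and 2.06 ± 0.076 under PdB (adjusted p = 3.4e-13 and 3.1e-14). PELO, a ribosome rescue factor, rose by 2.41 under PdB and EEFSEC, the selenocysteine elongation factor, fell by 2.47. DPH5, an enzyme of diphthamide synthesis, was higher at recovery than under PdB by 1.01. EEF2, the translocase, changed by -0.11 ± 0.040 under PdB, a call lost with RLE factors and a sign that turned with upper-quartile factors (0.038), and its kinase EEF2K by -0.19 ± 0.072, a call also lost with RLE. Of the 3 termination genes, GSPT2 rose by 1.66 and GSPT1 fell by 0.63 under PdB.

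Gene structure was set beside the changes as a description. Over the 49 tested members, Spearman's rho of the number of introns in the longest transcript with the change under PdB was -0.23, beside -0.32 over 14226 protein-coding genes. At recovery against DMSO it was 0.013 beside -0.18, and at recovery against PdB 0.27 beside 0.21. With introns of the longest coding transcript, the members' rho was -0.20 under PdB, beside -0.34 over 13994 protein-coding genes. It was then -0.10 beside -0.20 at recovery against DMSO, where the members' sign turned, and 0.24 beside 0.21 at recovery against PdB. These points are genes of the same libraries and carry no p. EIF4G3, with 34 introns, and EIF4G1, with 31, both fell under PdB, whereas EIF3A, with 21, rose. EIF1, with 3, rose and EIF1B, also with 3, fell.

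Some members overlap other genes. EIF4A1 shares 1586 exon bases with the read-through gene SENP3-EIF4A1, which averaged 1335 CPM at recovery, 1519 under PdB and 1105 in DMSO, close to the level of EIF4A1 itself. It also shares 2186 exon bases with AC016876.2 on the same strand, which averaged 1335 CPM at recovery, 1630 under PdB and 1119 in DMSO. How reads in shared exons were counted is not given in the sources used here. The 3 snoRNA genes that lie in EIF4A1 had counts equal to 1.65% of those of EIF4A1 at recovery, 4.90% under PdB and 0.716% in DMSO. For the 5 snoRNA genes in EIF4A2 the shares were 3.38%, 8.40% and 2.94% in the same order. Among these SNORA63 averaged 6.31 ± 0.283 CPM at recovery, 24.0 ± 2.21 under PdB and 1.97 ± 0.377 in DMSO. Their part in the values of the host genes was not tested. EIF3L shares 1767 exon bases with AL022311.1 on the same strand, which averaged 103 CPM at recovery, 74.7 under PdB and 83.0 in DMSO. EIF6 shares 284 exon bases with AL121753.1 on the same strand, at 149, 213 and 139 CPM in the same order. On the opposite strand, EIF3G shares 113 exon bases with P2RY11, which averaged 111 ± 3.76 CPM at recovery, 133 ± 13.7 under PdB and 24.0 ± 1.78 in DMSO. EIF3H shares 110 exon bases with UTP23, at 56.4 ± 4.52, 99.7 ± 4.46 and 27.5 ± 0.641 CPM in the same order. EIF2B1 shares 536 exon bases with DDX55, at 103.9 ± 3.45, 98.75 ± 10.6 and 48.7 ± 3.58 CPM. EIF2S1 shares 269 with ATP6V1D, at 127, 154 and 85.9 CPM, and EIF2A shares 153 with SERP1, at 103, 57.2 and 85.2 CPM. EIF5B shares 852 with REV1, at 23.7, 29.6 and 24.1 CPM, which was highest where EIF5B was lowest. Further opposite-strand overlaps are not listed. The part of reads from these overlapping genes in the values of the members was not tested. Of the 50-base windows of a transcript, 31.7% in EIF5A, 30.6% in EIF4B, 29.1% in EIF4A1, 23.2% in EIF2S3 and 22.6% in EIF2S2 also occur in other genes, among them pseudogenes, so these levels are less certain.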

How the data were processed

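The 9 libraries of MDA-MB-231 RNA were grouped by the treatment label. The molecule was polyA RNA and the library kit Universal Plus mRNA-Seq, per the labels. The authors deposited 1 table of whole-number read counts, not normalised, for 60708 gene IDs. The tools named are featureCounts 2.0.3, STAR 2.7.9a, fastp 0.23.2, DESeq2 1.30.0 and Picard, with hg38, per the submitters' processing notes. Sources used here do not give the annotation or the settings for strand, duplicates and reads that map to several places. A symbol was found for 60696 IDs, and 58440 matched GENCODE 29, which gave gene types, exons and introns.

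Counts were filtered with filterByExpr (20812 genes left), scaled by TMM and tested with the two-sided quasi-likelihood test of edgeR 4.0.16 in R 4.3.3 on all 9 libraries. The threshold was 0.05 after Benjamini-Hochberg adjustment over all genes. The common biological coefficient of variation came to 0.111, and depth ran from 56389689 to 67047079 counts. CPM per kb used the union of annotated exons. Log2 ratios of pairs used counts plus 1. No pair of libraries in a group agreed within counting noise (chi-square per degree of freedom of 4.98 to 26.0). The tests were tried on simulated data, with 200 genes changed. In the real data 6655 genes rose and 7944 fell under PdB, so that trial could not test the scaling when so many genes move.

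The members and lists were chosen with earlier results of these data known. Any member could be named. Values in every library were given, per role and comparison, for the largest rise and fall past the threshold with a mean of at least 100 counts and for 12 fixed members, and further members were added after their values were seen. Pathway genes named were the largest rise and fall per list and comparison and 9 fixed genes, of which some are not described. The other eIF2 kinases were added after their values were seen. Lists of eIF2 control, mTORC1 and cap control, other helpers, elongation and termination, and known TOP mRNAs were used. Of the 6 known TOP members (EIF2S3, EIF3E, EIF3F, EIF3H, EIF3L and EIF4B), 4 rose and 1 fell under PdB. These shares, 66.7% and 16.7%, stand beside 32.5% and 46.6% of protein-coding genes. Alternatives covered the scaling (library totals, RLE, upper quartile), the filter (none, or a mean of at least 50 counts), a threshold of 0.01, DESeq2 1.42.0, a fit of only the 6 libraries compared, a replicate block, leaving out each library, pseudocounts of 0 and 5, other transcript lengths and the family without 6 near-copies or low genes.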

Additional observations from a re-analysis of the deposited data

How the results depend on the processing

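The members' median log2 change for PdB against DMSO, -0.17, was -0.36 with library totals, -0.018 with upper-quartile factors, -0.071 with RLE, -0.065 with a mean of at least 50 counts, -0.075 in DESeq2 and -0.090 with the 6 libraries compared. For recovery against DMSO, 0.18 became 0.25 with library totals and 0.26 with upper-quartile factors. For recovery against PdB, 0.11 became 0.041 with upper-quartile factors, 0.38 with library totals and 0.031 with a mean of at least 50 counts, and the number of members called lower, 16, became 7 with library totals. With each library left out in turn, the median for PdB against DMSO lay between -0.22 and -0.091, with -0.091 without PdB replicate 3, and the counts of higher and lower calls were 21 and 23 each time. For recovery against DMSO these counts lay between 24 and 27 and between 9 and 10, and for recovery against PdB between 21 and 24 and between 13 and 18.

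Signs turned for EIF3E, PdB against DMSO, at 0.050 with RLE, 0.10 with upper-quartile factors, 0.077 with a mean of at least 50 counts, 0.046 in DESeq2 and 0.031 with the 6 libraries compared. EEF2 turned for PdB against DMSO at 0.038 with upper-quartile factors and 0.012 with a mean of at least 50 counts. For recovery against PdB, library totals turned EIF1 (0.12), EIF1AX (0.13), EIF3A (0.098), EIF3I (0.062), EIF4B (0.26), EIF4H (0.041), EEF2 (0.021) and PABPC1 (0.17). EIF4B also turned without a filter (0.0074) and ran from -0.043 to 0.038 with each library left out, above 0 without PdB replicate 2 or recovery replicate 3, and EIF4G3 at -0.022 with upper-quartile factors and -0.032 with a mean of at least 50 counts. The log2 ratio of EIF3C to EIF3CL, PdB minus DMSO, ran from -0.17 without PdB replicate 3 to 1.15 without PdB replicate 2, where it passed the exact test. The cause of these moves was not tested.

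The groups share replicate numbers in the labels, but same-numbered libraries did not deviate together (r between -0.0032 and 0.048), so the numbers were not taken as pairs. With the number as a replicate block the counts of higher and lower calls were 21 and 23, 27 and 10, and 23 and 17 for PdB and for recovery against DMSO and for recovery against PdB, and EIF4EBP1 at recovery against DMSO passed the test (edgeR adjusted p = 0.038). Depth did not limit most members, but EIF2S3B, EIF3CL and EIF4E3 had few reads.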
